A study of Mus musculus with 10 samples.

Results

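The S100 and annexin genes described here are S100a4, S100a6, S100a10, S100a11, S100a13, Anxa1, Anxa2, Anxa5, Anxa6 and Anxa7, 10 of the 54838 genes in the count table, chosen by name. They were followed through 10 total RNA libraries of group 2 innate lymphoid cells (ILC2), lymphocytes without antigen receptors that secrete type 2 cytokines, sorted from mouse lung after inflammation raised with papain, a protease. The 5 KO libraries came from C57BL/6 mice labelled as knockout (KO) for the transcription factor c-Maf, and the 5 WT libraries from wild type C57BL/6 mice. All 10 libraries came from papain-treated lungs of littermates that shared cages, and the cells were sorted as negative for lineage markers and positive for CD90.2, whether or not they carried ST2 and KLRG1. How Maf was deleted, in which cells, and the age and sex of the mice, are not given in the sources that were used. Numbers follow deposit order and pair nothing. Sample titles carry a separate number for each library, all lower in WT than in KO, so genotype cannot be told apart from that order. The labels do not state whether every library is a different mouse, so each p-value reflects only how these libraries vary.

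S100 proteins are small calcium sensors built from EF-hand loops, which work mostly as dimers and bind partner proteins inside the cell or, after release, receptors on other cells. Annexins bind negatively charged membrane lipids when calcium rises and take part in vesicle traffic, membrane repair and the resolution of inflammation. The families meet in complexes, such as that of S100A10 with annexin A2 and that of S100A11 with annexin A1. Several of these genes, S100a4, S100a6 and S100a10 among them, are known to be higher in effector and memory T cells than in naive ones.

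The KO libraries were shallower and more uneven than the WT libraries. Totals ran from 3620002 to 9867580 counts in KO and from 21400938 to 24489987 in WT, with any count in 4052 to 7660 genes in KO and in 10577 to 12744 in WT. KO library 1 held 93.43% of its counts in 100 genes. Maf itself had 0, 0, 0, 108 and 0 counts in KO libraries 1 to 5, against 3252, 3832, 1412, 1696 and 2727 in WT libraries 1 to 5, so KO library 4, at 15.4 CPM, kept a Maf signal below that of every WT library (lowest 37.5 CPM). Each of the 10 ILC2 markers, among them Gata3, Il1rl1 and Il7r, was found in both groups, but KO library 1 had only 8 counts of Thy1, 1 of Klrg1 and 2 of Areg, and KO library 3 had 2 of Klrg1 and 0 of Id2. Levels are given as CPM, counts per 1000000 counts of the tested genes, scaled by the trimmed mean of M values (TMM), whose factors were 0.1803 to 0.9276 in KO and 1.462 to 1.908 in WT, so the scaling itself separates the groups.

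All 10 genes had over 3 counts in every WT library, while in KO libraries 1 to 5 this held for 2, 6, 4, 7 and 4 of them. Over all 7490 genes tested, 18, 36.4, 45.4, 44.9 and 35% had over 3 counts in KO libraries 1 to 5. S100a11 and Anxa6 were found in every KO library, 2 of 10 genes, against 7.06% of all tested genes. S100a13 and Anxa7, again 2 of 10, did not exceed 3 counts in any of the 5 KO libraries, as was the case for 22.3% of tested genes. At most 3 counts in 4 or more KO libraries also held for these 2 alone, against 51.2% of tested genes, and in 3 or more for 7 of 10, against 70.9%. In a sorted bulk sample, fewer cells with a transcript and less of it per cell cannot be told apart. Whether transcripts were missed when the shallower, more uneven KO libraries were made was not tested.

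**Figure D1:**
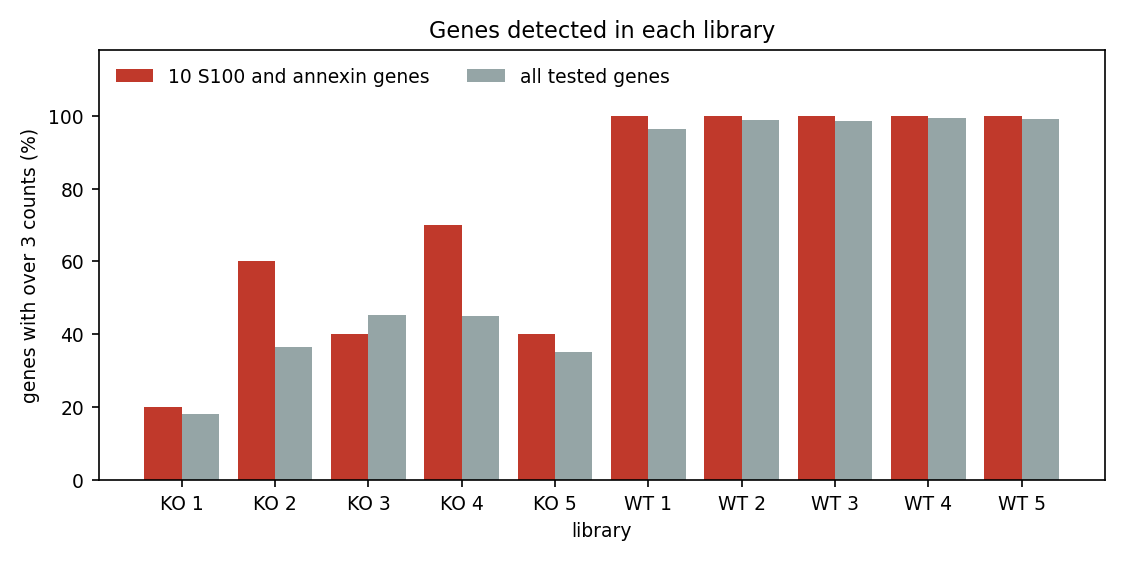
Share of genes with over 3 counts (vertical axis, %) in each of the 5 KO and 5 WT libraries, for the 10 S100 and annexin genes (red) and for all 7490 tested genes (grey). In KO libraries 1 to 5, from 2 to 7 of the 10 genes passed, and in each WT library all 10.

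Tested with edgeR (quasi-likelihood, Benjamini-Hochberg adjusted p under 0.05 over the 7490 genes), S100a13, Anxa7 and Anxa2 fell in KO, 0 of the 10 genes rose and 7 did not pass. Of all tested genes, 27.1% were called lower and 1.5% higher, so 3 lower of 10 is near the background. The median log2 fold change of the 10 genes was −0.31, against −0.47 over all tested genes. By exact permutation tests of log2(CPM + 1), S100a4 joined these 3, each with all KO libraries below all WT libraries (exact two-sided p = 0.00794, the smallest that 5 against 5 libraries allow, adjusted p = 0.0268 over the tested genes). Such separation with KO below WT was seen for 28.9% of tested genes and with KO above WT, as for 0 of the 10, for 0.774%. The permutation tests called 32.2% of tested genes lower and 0.975% higher, against 4 and 0 of the 10. With counts scaled by library size alone, Anxa6 joined them, giving 5 of 10 genes against 36.6% of tested genes.

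The counts moved with the fit, as did their backgrounds. Lower in KO were 2 of the 10 genes with relative log expression (RLE) size factors, against 24.2% of tested genes, 4 with library size alone (31.1%), 3 with DESeq2 (23.3%), which gave an adjusted p to only 8 of the 10 and none to S100a11 and Anxa5, and 5 with limma voom (33.2%). Higher were 1 with RLE size factors (S100a11, against 2.58%) and 0 with library size alone (0.654%), DESeq2 (of 8, 13.5%) or voom (0.948%). Leaving out KO library 1, 2, 3, 4 or 5 gave 3, 3, 3, 4 and 3 lower, against 33.7, 35.5, 37.9, 37.8 and 36.6% of tested genes, and 1 higher each time, against 3.72, 3.56, 3.09, 3.41 and 2.43%. The single higher gene was Anxa5 without KO library 1 and S100a11 without any of the other 4.

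**Figure D2:**
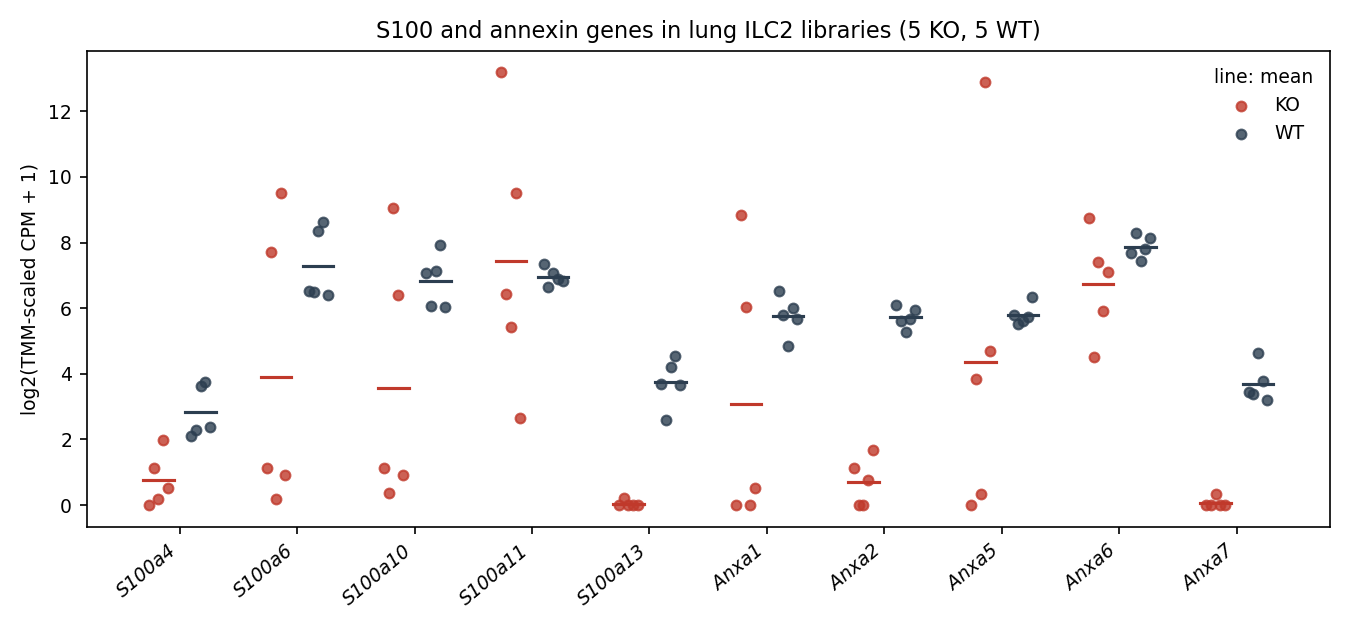
Level of each S100 and annexin gene, as log2(TMM-scaled CPM + 1), in the 5 KO (red, left) and 5 WT (dark, right) libraries; each point is a library and each line the mean of its group. The WT libraries of each gene stay within a 4.73-fold range, whereas the KO libraries of S100a6, S100a10, Anxa1 and Anxa5 run from near 0 to above every WT library.

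Among the S100 genes, S100a13, whose protein helps export FGF1 and IL-1 alpha from cells without a signal peptide, was all but missing in KO. It lies at 90514435 to 90524581 on chromosome 3 (GRCm38, plus strand). Its counts were 0, 1, 0, 0 and 0 in KO libraries 1 to 5 and 417, 227, 579, 1010 and 516 in WT libraries 1 to 5. The groups did not overlap. A single read over the KO group puts the level 328 times lower in KO, with a 95% counting interval of 58.8 to 13000 that covers counting error only (edgeR adjusted p = 0.00163).

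S100a4 and S100a6 are neighbours on chromosome 3, at 90603771 to 90606045 and 90612882 to 90624181 on the plus strand. S100A4 binds non-muscle myosin and is linked to cell migration, and S100A6, or calcyclin, binds the ubiquitin ligase component CacyBP. Their RefSeq promoter windows, 250 bases before to 50 after the start, are shown because each holds 1 match (capitals, TCAGCA on this strand) to TGCTGA, the end of the Maf recognition element, at chr3:90603520-90603819 and chr3:90612644-90612943 (GRCm38.p6, plus strand).
S100a4: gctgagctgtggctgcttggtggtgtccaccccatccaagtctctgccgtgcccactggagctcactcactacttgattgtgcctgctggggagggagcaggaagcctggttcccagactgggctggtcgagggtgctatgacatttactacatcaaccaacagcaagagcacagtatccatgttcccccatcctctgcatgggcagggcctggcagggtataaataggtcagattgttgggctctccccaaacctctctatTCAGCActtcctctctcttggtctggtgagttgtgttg
S100a6: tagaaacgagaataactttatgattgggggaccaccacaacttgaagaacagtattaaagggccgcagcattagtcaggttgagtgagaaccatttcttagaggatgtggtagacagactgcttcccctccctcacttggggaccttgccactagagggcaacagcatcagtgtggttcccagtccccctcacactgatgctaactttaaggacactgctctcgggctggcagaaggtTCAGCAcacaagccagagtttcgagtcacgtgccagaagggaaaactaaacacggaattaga
The match begins 12 bases after the start base in S100a4 and 12 bases before it in S100a6. On either strand TGCTGA stood in 19.5% of 32851 RefSeq promoter windows of this length and in 2 of the 9 windows found for 8 of the 10 genes.

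S100a6 was present in 2 KO libraries and nearly absent from KO libraries 1, 3 and 5. Its counts were 1, 1389, 1, 5149 and 2 in KO libraries 1 to 5, against 3145, 3980, 10835, 17917 and 3680 in WT libraries 1 to 5. KO library 4 was above every WT library in CPM and KO libraries 1, 3 and 5 were below every one, so the groups overlapped. The mean level was 189 ± 318 CPM in KO and 197 ± 152 CPM in WT (SD, n = 5 each), with a log2 fold change of −0.06 (SE 1.71, edgeR adjusted p = 0.986). With limma voom, where the median gene stood at −3.58, S100a6 passed as lower (−4.98, limma adjusted p = 0.0352).

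S100a4 was weak in both groups. Counts were 0, 8, 1, 21 and 1 in KO libraries 1 to 5 and 114, 176, 381, 561 and 183 in WT libraries 1 to 5, so KO lay below WT throughout. The edgeR log2 fold change was −2.75 (SE 1.09, edgeR adjusted p = 0.0703), which missed the threshold. It passed with library size alone (−4.07, edgeR adjusted p = 0.0181) and without KO library 4 (−3.65, edgeR adjusted p = 0.0235). In the GENCODE M21 annotation all but 160 of the 2275 bases of S100a4 also belong to Gm42674, a gene model on the same strand with 0 counts. Of 1270 protein-coding genes lying inside another gene 99.8% had 0 counts in every library, against 40.2% of 11882 that overlap none, so the level of S100a4 is uncertain.

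The libraries with S100a6 were also those with S100a4. S100a6 had 174 and 245 times the counts of S100a4 in KO libraries 2 and 4, the 2 KO libraries with over 3 counts of both, against 27.6, 22.6, 28.4, 31.9 and 20.1 times in WT libraries 1 to 5. The KO ratios rest on 8 and 21 counts of S100a4.

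S100a10 encodes the partner of annexin A2, which brings channels and plasminogen-binding activity to the cell surface and whose EF-hand loops no longer bind calcium. The gene lies at 93555080 to 93564643 on chromosome 3, plus strand. Its counts were 1, 2, 3888, 584 and 2 in KO libraries 1 to 5 and 4690, 2956, 4611, 10909 and 2814 in WT libraries 1 to 5. KO library 3 stood above every WT library in CPM and KO library 4 within their range, while KO libraries 1, 2 and 5 were nearly empty. The level was 124 ± 231 CPM in KO and 129 ± 72.3 CPM in WT (SD, n = 5 each), with a log2 fold change of −0.06 (SE 1.69, edgeR adjusted p = 0.986). It too passed as lower with limma voom (−4.72, limma adjusted p = 0.032).

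S100a11, which partners annexin A1 and takes part in membrane repair, was the S100 gene found in all 10 libraries (chromosome 3, 93520488 to 93526287, plus strand). Counts were 7918, 570, 306, 5098 and 12 in KO libraries 1 to 5, against 5640, 4421, 4444, 5280 and 4986 in WT libraries 1 to 5. The WT libraries were nearly level, with a coefficient of variation (SD as a share of the mean) of 19.2%, compared with a median of 55.2% over all tested genes. In KO, libraries 1 and 4 were above every WT library and libraries 2, 3 and 5 below every one. KO library 1 alone gave 0.166% of its counts to S100a11 (exact 95% interval 0.163 to 0.17%, counting error only), and its low TMM factor put that level at 9315 CPM, against 1680 CPM by library size. The log2 fold change of 4.03 (SE 1.58) missed the threshold (edgeR adjusted p = 0.0682) and passed with RLE size factors (6.35, edgeR adjusted p = 0.0273). The edgeR adjusted p was 0.0315, 0.0262, 0.0391 and 0.0179 when KO library 2, 3, 4 or 5 was left out. When KO library 1 was left out, the log2 fold change was 0.75 (edgeR adjusted p = 0.692).

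Of the annexins, Anxa2 was low in every KO library. Annexin A2 links membranes to actin and, with S100A10, binds plasminogen at the cell surface. The gene lies at 69453620 to 69491795 on chromosome 9, plus strand. Counts were 1, 0, 0, 5 and 5 in KO libraries 1 to 5 and 2351, 2156, 1253, 2244 and 2674 in WT libraries 1 to 5. No KO library came near the WT libraries, whose highest was 1.79 times their lowest in CPM. The level was 0.816 ± 0.917 CPM in KO and 52.7 ± 11.6 CPM in WT (SD, n = 5 each), with a log2 fold change of −6.10 (SE 1.89, edgeR adjusted p = 0.0194). The call held in 8 of the 9 alternatives that kept all libraries and was lost with RLE size factors (−4.92, edgeR adjusted p = 0.06).

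The counts of the S100A10 and annexin A2 pair stood far apart in the KO libraries with S100a10. KO library 3 had 3888 counts of S100a10 and 0 of Anxa2, and KO library 4 had 584 and 5. In WT libraries 1 to 5, S100a10 had 1.99, 1.37, 3.68, 4.86 and 1.05 times the counts of Anxa2.

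The promoter windows of Anxa2 and S100a11 are set side by side because both hold an AP-1 site. In KO, Anxa2 had at most 5 counts in a library, whereas S100a11 was present in each. Capitals mark matches to TGANTCA, the site of AP-1 factors, whose TGA the letters TGCTGA can overlap. The windows are chr9:69453433-69453732 and chr3:93520246-93520545 (RefSeq, GRCm38.p6, plus strand).
Anxa2: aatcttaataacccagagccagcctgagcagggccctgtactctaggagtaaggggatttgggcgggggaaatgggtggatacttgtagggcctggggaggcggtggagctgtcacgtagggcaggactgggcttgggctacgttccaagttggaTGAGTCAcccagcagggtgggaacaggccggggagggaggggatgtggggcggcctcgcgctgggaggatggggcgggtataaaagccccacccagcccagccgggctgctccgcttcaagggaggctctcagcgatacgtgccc
S100a11: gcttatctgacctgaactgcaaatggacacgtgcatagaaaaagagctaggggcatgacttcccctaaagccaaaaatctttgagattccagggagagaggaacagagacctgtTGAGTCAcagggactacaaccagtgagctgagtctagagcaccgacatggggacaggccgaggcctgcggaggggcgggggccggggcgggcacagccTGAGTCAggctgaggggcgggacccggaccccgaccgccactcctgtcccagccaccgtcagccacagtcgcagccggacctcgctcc
TGAGTCA stood once in the Anxa2 window, beginning 95 bases before the start base, and at 2 places in that of S100a11, beginning 136 and 38 bases before it. Of all windows 7.8% held TGANTCA on either strand, and of the 9 windows of these genes 2 did. The match does not separate Anxa2 from S100a11. No match was found in the windows of S100a13 and Anxa7, the genes with the fewest counts in KO.

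Anxa7, or synexin, which promotes the fusion of secretory granules, was the other annexin that fell. It lies at 20455260 to 20480133 on chromosome 14, minus strand. Counts were 0, 0, 2, 0 and 0 in KO libraries 1 to 5, against 344, 424, 792, 580 and 362 in WT libraries 1 to 5. That is 149 times lower in KO, with a 95% counting interval of 41.3 to 1230 (edgeR adjusted p = 0.00163). The calls of Anxa7 and S100a13 held in each of the 9 alternatives that kept all libraries and with any single library left out.

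Anxa6, which carries a duplicated annexin core and steers cholesterol and endosome traffic, was found in every library (chromosome 11, 54979108 to 55033445, minus strand). Counts were 361, 146, 1227, 417 and 312 in KO libraries 1 to 5 and 7146, 13908, 5748, 10018 and 12352 in WT libraries 1 to 5. In CPM, KO library 1 was above every WT library and the other 4 below every one. The level was 162 ± 158 CPM in KO and 238 ± 56.6 CPM in WT (SD, n = 5 each; log2 fold change −0.56, SE 1.22, edgeR adjusted p = 0.791). Direction depended on the scaling, at 1.26 with RLE size factors (edgeR adjusted p = 0.525) but −2.44 when scaled by library size (edgeR adjusted p = 0.146). With library size alone every KO library was below every WT library (exact permutation p = 0.00794, adjusted p = 0.0215 over the tested genes).

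Anxa1, a mediator of the anti-inflammatory action of glucocorticoids, had over 3 counts in only KO libraries 2 and 3 (chromosome 19, 20373428 to 20390944, minus strand). Counts were 0, 3076, 469, 0 and 1 in KO libraries 1 to 5 and 3198, 2409, 929, 2864 and 2191 in WT libraries 1 to 5. KO library 2 was above every WT library in CPM, KO library 3 within their range, and the rest below. The log2 fold change was 0.88 (SE 1.88, edgeR adjusted p = 0.786), and −1.84 without KO library 2 (edgeR adjusted p = 0.445). Its reported partner gene S100a11 had 5098 counts in KO library 4, where Anxa1 had 0. In GENCODE M21 the whole of Anxa1 lies inside 1500015L24Rik, a long noncoding gene on the opposite strand with 0 counts. Anxa1 was counted all the same, unlike nearly all genes that lie inside another, so how its reads were assigned is not known.

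Anxa5, the annexin used as a probe of dying cells because it binds phosphatidylserine, gave the largest count of the 10 genes in any library. Counts were 0, 88, 2, 53353 and 57 in KO libraries 1 to 5 and 1917, 2016, 1602, 2379 and 3488 in WT libraries 1 to 5. KO library 4 held 99.7% of the KO counts, and Anxa5 made up 0.541% of that library (exact 95% interval 0.536 to 0.545%, counting error only). The other 4 KO libraries were below every WT library. The log2 fold change was 4.77 (SE 2.10, edgeR adjusted p = 0.11), −2.25 without KO library 4 (edgeR adjusted p = 0.276). It passed once KO library 1 was dropped (5.07, edgeR adjusted p = 0.0372). The gene lies at 36448923 to 36475894 on chromosome 3, minus strand.

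**Figure D3:**
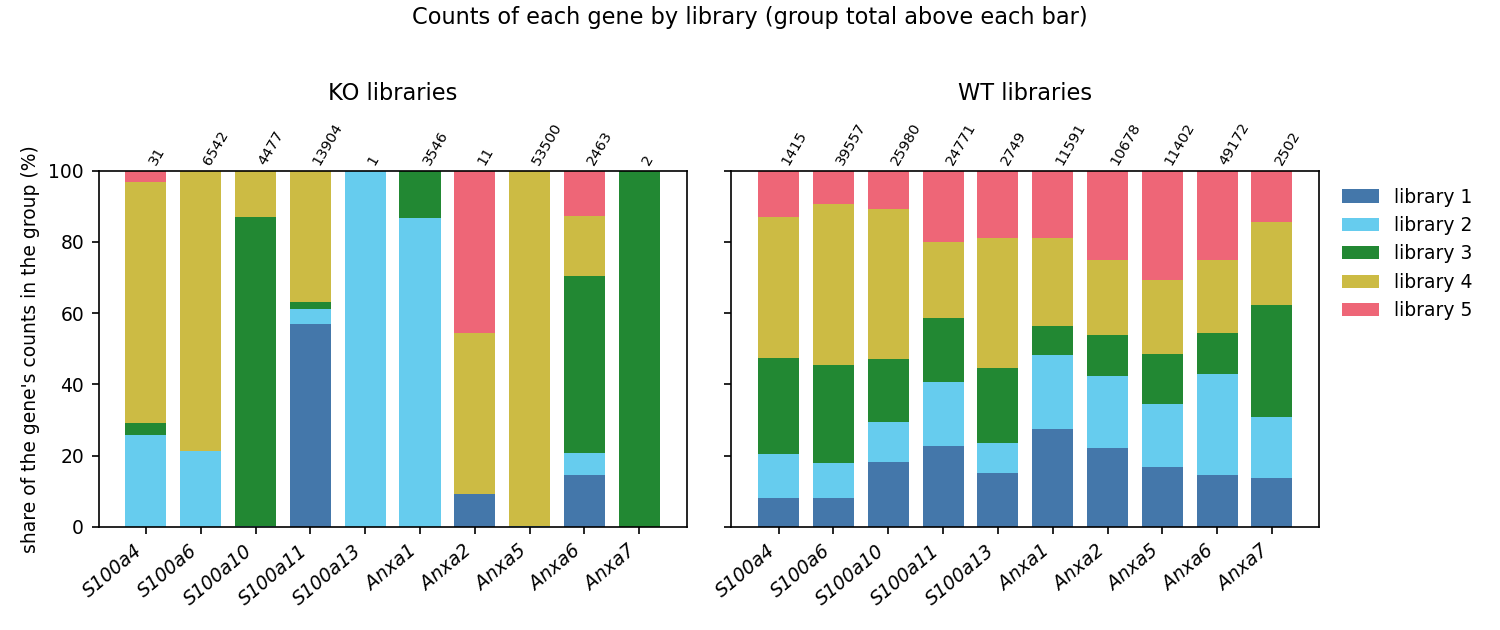
Share of each gene's counts (vertical axis, %) that came from each of the 5 libraries of its group, for KO (left) and WT (right), with the group's total count above each bar. One KO library held 99.7% of the KO counts of Anxa5, 86.8% of S100a10 and 86.7% of Anxa1, whereas no WT library held over 45.3% of the WT counts of a gene.

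The largest KO library held from 45.5 to 100% of a gene's KO counts, and the largest WT library from 22.8 to 45.3% of its WT counts. Over all tested genes the median share of the largest WT library was 34.6%. Over the 4528 tested genes with at least 100 KO counts, the largest KO library held a median of 89.1%. A different library was the largest for different genes: KO library 4 for S100a4, S100a6 and Anxa5, KO library 3 for S100a10 and Anxa6, KO library 2 for Anxa1, and KO library 1 for S100a11. Adding up all 10 genes gave 0.1741, 0.05814, 0.06815, 0.6549 and 0.01083% of the counts in KO libraries 1 to 5, against 0.1203, 0.1334, 0.1457, 0.2229 and 0.1421% in WT libraries 1 to 5.

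**Figure D4:**
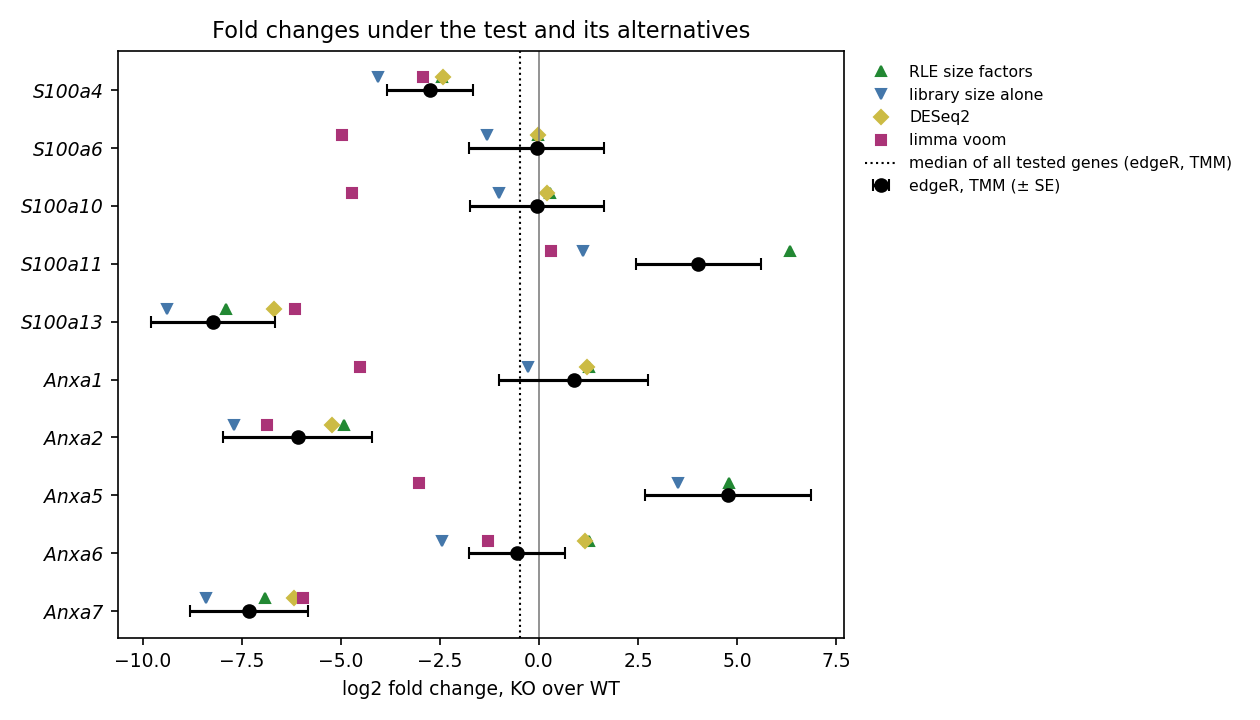
Log2 fold change of each gene, KO over WT, with edgeR and TMM scaling (black, ± SE) and under 4 alternatives (coloured marks; DESeq2 gave no adjusted p for S100a11 and Anxa5, which have no mark for it). S100a13, Anxa2 and Anxa7 stay below −4.9 under all of these, while Anxa1, Anxa5, Anxa6 and S100a10 have marks on both sides of 0.

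Per length, S100 genes led in WT. In CPM per kilobase of exon, S100a11 stood at 244 ± 46.9, S100a6 at 144 ± 111, S100a10 at 106 ± 59.7 and Anxa6 at 81.3 ± 19.3 (SD, n = 5). The ranges of S100a6, S100a10 and Anxa6 overlapped, so their order is not settled, and S100a11, whose lowest WT library was at 193, overlapped S100a6 and S100a10. Anxa5 followed at 31.5 ± 7.65, Anxa1 at 19.7 ± 7.96, S100a13 at 19.2 ± 9.11, Anxa2 at 14.1 ± 3.11 and S100a4 at 12.1 ± 7.68, each overlapping the next. Anxa7 was lowest, at 2.14 ± 1.06. Exon lengths included bases shared with other genes, whose reads may not be counted. Outside other genes lay 160 of the 584 exon bases of S100a4, 2597 of 3731 for Anxa2 and 0 of 2911 for Anxa1. The places of S100a4, Anxa2 and Anxa1 in this order are therefore uncertain. Per kilobase of the whole gene S100a11 still led, at 21.5, followed by S100a6 at 17.4 and S100a10 at 13.5.

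Within WT, some S100 genes had a wider range than the annexins. Their coefficients of variation were 77.1% for S100a6, 63.7% for S100a4, 56.1% for S100a10 and 47.5% for S100a13. The highest among the annexins was 49.5%, for Anxa7, and the median over all tested genes was 55.2%. The highest WT library was 4.73 times the lowest for S100a6, 4.40 for S100a13, 3.80 for S100a4 and 3.77 for S100a10, but 1.64 for S100a11, and for the annexins it ran from 1.76 for Anxa5 to 3.28 for Anxa1. S100a6 stood at 90.1, 89.0, 325, 396 and 83.7 CPM in WT libraries 1 to 5, and S100a4 at 3.27, 3.93, 11.4, 12.4 and 4.16 CPM. Both were high in WT libraries 3 and 4 and low in the others. S100a13 and S100a10 were highest in WT library 4 as well. The annexins differed in WT library 3, where Anxa1, Anxa2 and Anxa6 were lowest and Anxa7, at 23.8 CPM, was highest. A set of 5 WT libraries is too small for a correlation, and none is given.

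Some markers of other cells were high in the same WT libraries. The 6 T cell markers summed to 12.2, 21, 67.1, 68.9 and 12.9 CPM in WT libraries 1 to 5, of which Cd3g gave 60.6 and 68.1 CPM in libraries 3 and 4. Cd3e and Cd3d did not follow this order, at 5.71 and 0.841 CPM in WT library 3 and 0.73 and 0.0885 CPM in WT library 4, against 6.79 and 3.91 CPM in WT library 2. Cd8a and Cd8b1 were at 0 in all 10 libraries, and Cd4 had 1 count, in KO library 5. Their sum was 0.876 to 43.5 CPM in KO. The 12 macrophage markers summed to 19.5, 76.3, 45.4, 302 and 2.37 CPM in WT libraries 1 to 5, of which Lyz2 gave 247 CPM in WT library 4, but WT library 2 was above WT library 3, unlike S100a4 and S100a6. In KO they summed to 0 to 35.3 CPM, and Fabp4 and C1qa were at 0 in all libraries. In WT libraries 1 to 5, epithelial markers summed to 6.02, 4.36, 10.1, 20.9 and 2.96 CPM. Natural killer (NK) cell markers summed to 0, 3.24, 5.98, 5.07 and 0 CPM. Both sums were highest in WT libraries 3 and 4. The epithelial sum was mostly Scgb1a1 in WT library 3 (6.49 CPM) and Cdh1 in WT library 4 (19.1 CPM). Epcam was instead highest in WT libraries 1 and 5 (1.98 and 1.43 CPM), and Sftpc and Krt8 were at 0 in all libraries. In WT libraries 3 and 4 the NK sum was nearly all Prf1 (5.92 and 5.07 CPM), and Ncr1, Klrb1c and Eomes were at 0 in all libraries. The endothelial sum (91, 90.7, 24.1, 41.5 and 56.4 CPM), nearly all Pecam1, was lowest in WT libraries 3 and 4. So was the sum of the 10 ILC2 markers (4620, 4630, 3450, 3090 and 4140 CPM). Of these, Gata3, Rora, Il7r, Il2ra and Icos were lowest in those libraries, whereas Il1rl1, Thy1, Id2, Klrg1 and Areg did not follow this order. Id2 was highest there, at 178 and 132 CPM, against 56.9 to 82.5 CPM in the other WT libraries. The other marker lists followed neither order. The part of other cells in the levels of the S100 genes was not tested.

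Of the 6 erythroid markers, 4 were tested and all 4, the beta globin genes Hbb-bs and Hbb-bt and the alpha globin genes Hba-a1 and Hba-a2, rose in KO (edgeR adjusted p = 0.00163 each). Their counts were highest in KO library 1, the library with the most S100a11, which held 421480 counts of Hbb-bs and 251111 of Hba-a1. The other 4 KO libraries held 173 to 3718 counts of Hbb-bs, against 13 to 124 in the WT libraries. Alas2, another erythroid marker, was at 0 in all 10 libraries. Leaving the globin and mitochondrial genes out of the fit gave S100a11 a log2 fold change of 4.11 (edgeR adjusted p = 0.0603).

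**Figure D5:**
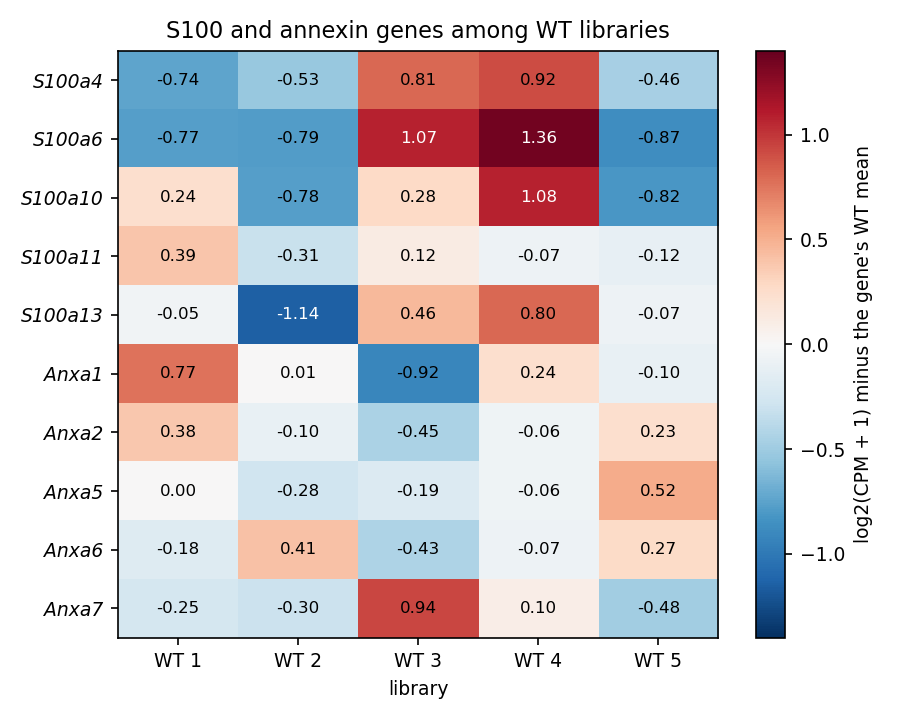
Level of each gene in the 5 WT libraries, as log2(CPM + 1) minus the gene's mean over them (red above, blue below). S100a4 and S100a6 are above their mean in WT libraries 3 and 4 and below it in the others, and S100a11 stays within 0.39 of its mean.

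Of 18 further S100 and annexin genes, 7 were at 0 in every library, 8 had over 3 counts in any library and 2 were tested. S100g and Anxa8, both at 0, lie inside another gene and may not be measured. S100a8 and S100a9, the calprotectin genes of neutrophils, had at most 76 and 7 counts in a library, and 6 of the 8 other neutrophil markers were at 0 everywhere. Anxa4, which binds epithelial and secretory membranes, had 719, 1144, 246, 48 and 2 counts in KO libraries 1 to 5 and 281, 94, 1215, 1145 and 484 in WT libraries 1 to 5. Its log2 fold change was 3.67 (SE 1.78, edgeR adjusted p = 0.15), and it passed with DESeq2 (5.68, adjusted p = 0.00244), with RLE size factors (5.78, edgeR adjusted p = 0.0454) and without KO library 5 (4.53, edgeR adjusted p = 0.0402).

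For 3 more genes of the families, nearly all KO counts lay in 1 library. Anxa11, a linker of RNA granules to lysosomes, had 952 counts in KO library 4 and 0 in the other 4, against 1406, 462, 235, 436 and 537 in WT libraries 1 to 5 (log2 fold change 0.78, SE 2.01, edgeR adjusted p = 0.825). Dropping KO library 4 leaves 0 counts in KO, and edgeR then called it lower (edgeR adjusted p = 0.00525). S100a1 had 835 counts in KO library 4 and 0 in the others, against 0, 147, 258, 398 and 0 in WT libraries 1 to 5. In KO library 5 lay 302 of the 315 KO counts of Anxa3, which had 12 counts over all WT libraries. S100a1 and Anxa3 reached the count minimum in too few libraries to be kept for the test.

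Of 25 genes of binding partners, receptors and other calcium sensors that work with these families, 17 were tested, 2 fell, 0 rose and 15 did not pass, where 27.1% of all tested genes were called lower and 1.5% higher. Their median log2 fold change was 0.07, against −0.47 over all tested genes. Tlr4, which encodes a receptor for extracellular S100 proteins, had 0 counts in KO and 1180 in WT, at least 46.9-fold lower when KO is set to 3 counts in all (edgeR adjusted p = 0.00163). Plaur, the urokinase receptor of plasminogen activation, had 0 counts in KO and 520 in WT, at least 20.7-fold lower (edgeR adjusted p = 0.00163). Fpr2, the best known receptor of annexin A1, was at 0 in all 10 libraries.

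Other partners did not pass with edgeR. Ahnak, the giant scaffold bound by S100A10 and annexin A2, stood at 1598 ± 901 CPM in KO and 1959 ± 464 CPM in WT (SD, n = 5 each; edgeR adjusted p = 0.838), and Myh9, the myosin heavy chain bound by S100A4, at 312 ± 422 CPM in KO and 434 ± 165 CPM in WT (edgeR adjusted p = 0.835). Pdcd6, a calcium sensor that binds annexins, had 73 counts in KO and 4642 in WT (log2 fold change −3.27, edgeR adjusted p = 0.154), and it passed without KO library 2 (−6.28, edgeR adjusted p = 0.00924). Sri, or sorcin, a binding partner of annexin A7, had 202 counts in KO, 183 of them in library 5, and 10633 in WT (−1.71, edgeR adjusted p = 0.562), and passed once that library was dropped (−6.16, edgeR adjusted p = 0.0197). Capn1, a calcium-activated protease, had 14483 counts in KO, all but 2 of them in library 5, against 3042 in WT (6.40, SE 2.65, edgeR adjusted p = 0.0861). With KO library 5 dropped Capn1 passed as lower (−7.32, edgeR adjusted p = 0.00441), and with KO library 1, 2, 3 or 4 dropped as higher, at 7.13 to 7.18 (edgeR adjusted p = 0.0352 to 0.0403). Cacybp, the S100A6 partner, had 1877 counts in KO and 3220 in WT (1.69, SE 1.81, edgeR adjusted p = 0.554).

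Likeness of pattern was measured as the mean absolute difference of log2(CPM + 1) over the 10 libraries, after centring each gene on its mean, so that 0 would be the same pattern. The genes named were picked as the nearest, so a value under the median follows from the choice. Wbp1 and Mtch2 were nearest to Anxa7, at 0.11 and 0.15, where the median over all genes was 1.41. Both had 0 counts in KO, where Anxa7 had 2, and 22.3% of tested genes did not exceed 3 counts in any KO library. Dhdds and Bysl were nearest to S100a4 at 0.39 (median 1.44), and Ubap2 and Ccar1 to Anxa2 at 0.32 and 0.35 (median 1.77). Ppp1r14b lay 0.16 from S100a13 (median 1.46), with 0 counts in KO against 1 for S100a13. For the other genes, Cd81 and Rpl36a lay 0.57 and 0.58 from S100a6 (median 2.58), and Pafah1b1 and Psap 0.49 and 0.52 from S100a10 (median 2.25). Smad4 and Dusp5 lay 0.36 and 0.63 from S100a11 (median 2.55), and Tpp2 0.51 from Anxa1 (median 2.27). Rap1gds1 and Rundc1 lay 0.84 and 0.93 from Anxa5 (median 2.42), and Cast and Akap7 0.48 and 0.64 from Anxa6 (median 1.65). Unlike Anxa6, Akap7 was nearly absent from KO, with 1 count there and 420 in WT. It was called lower (log2 fold change −4.93, edgeR adjusted p = 0.0125).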

How the data were processed

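Libraries of sorted lung ILC2 used a stranded kit for total RNA, per the labels' protocols. The table the authors deposited gives raw counts per gene as whole numbers. STAR 2.6.0c, SAMtools 1.8, HTSeq 0.9.1 and build GRCm38 are named in the submitters' processing notes; the annotation release, strand setting and feature type are not stated there. Groups follow the genotype in the labels. Gene positions and overlaps are from GENCODE M21 (GRCm38), in which 54809 of the 54838 identifiers were found; promoters are from RefSeq.

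Genes were kept by filterByExpr (minimum 10 counts) in edgeR 4.0.16 (R 4.3.3), scaled by TMM and tested with the quasi-likelihood test, KO over WT, with Benjamini-Hochberg adjustment over the 7490 genes kept. The standard error is the log2 fold change divided by the square root of F. Exact two-sided permutation tests (252 splits, pseudocount 1) were run for every gene kept. The edgeR fit was tested on simulated counts with the same spread in both groups, so that test does not cover the uneven KO libraries. Alternatives were DESeq2 1.42.0, RLE size factors, scaling by library size alone, limma 3.58.1 with voom, a robust fit, other filters and thresholds, thinning to 3620002 counts, leaving out mitochondrial and globin genes, and leaving out each library. Named are the 10 genes, Maf, further family genes with at least 100 counts in a library, partners that passed or had the 6 smallest p, and the 2 likest genes of each, of which some are not reported here; Ahnak, Myh9, S100a8, S100a9, S100g, Anxa8 and Fpr2 were named after their values were seen. The members and lists were chosen with earlier results of these data known.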

Additional observations from a re-analysis of the deposited data

Results flagged for a closer look

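A library that stood far from the other 4 of its group was found for 14 of 30 groups of libraries looked at (15 genes in KO and in WT), where chance gives about 1 in 20 for normally distributed values. These values are not of that kind: a gene with counts in 1 library alone is singled out whatever its level, 4 of the 15 genes were listed for having at least 100 counts in a library, and over the 4528 tested genes with at least 100 KO counts the largest KO library held a median of 89.1% of them. In each, the gap to the nearest library was over 0.71 of the group's whole range of CPM. Of the 14 groups, 12 were KO groups, and each time the library that stood apart was the highest of its group. Some libraries stood apart for more than 1 gene, KO library 4 among them.

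KO library 4 was far above the rest for Anxa5 (7607 CPM, next 25.0), S100a6 (734 CPM, next 208), Anxa11 (136 CPM, next 0), S100a1 (119 CPM, next 0) and Maf (15.4 CPM, next 0). KO library 1 stood out for S100a11 (9315 CPM, next 727) and Anxa4 (846 CPM, next 172), KO library 2 for Anxa1 (461 CPM, next 64.2) and, on 1 count, S100a13 (0.15 CPM), KO library 3 for S100a10 (532 CPM, next 83.3) and, on 2 counts, Anxa7 (0.274 CPM), and KO library 5 for Anxa3 (132 CPM, next 1.64). Among WT libraries, library 1 stood out for Anxa11 (40.3 CPM, next 12.2) and library 5 for Anxa5 (79.4 CPM, next 54.9).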

How the results depend on the processing

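Of the 10 genes, 3 were lower in KO (S100a13, Anxa2, Anxa7) and 0 higher. The count of lower genes was 5 with voom (also S100a6, −4.98, and S100a10, −4.72) and 2 to 4 otherwise; the count of higher genes was 1 with RLE size factors, with a filter of 10 counts in 3 libraries and at an adjusted p of 0.1 (S100a11 each time). Leaving out single libraries gave 3 to 4 lower and 0 to 1 higher. Over all genes, 2027 were lower and 112 higher. Lower calls were 3179 with the filter of 10 counts in 3 libraries (9981 genes tested) and 1266 after thinning (6004 tested). DESeq2 called 2611 lower and, with no filter, edgeR called 3024 lower. Higher calls were 193 with RLE size factors, 49 with library size alone, 1512 with DESeq2, 71 with voom, 2345 with no filter, 297 with the filter of 10 counts in 3 libraries, 46 after thinning and 224 at an adjusted p of 0.1. Single libraries left out gave 1734 to 3350 lower and 82 to 333 higher; the range of higher calls came from leaving out KO libraries, each of which raised them to at least 215 with 8812 to 8953 genes tested. The exact permutation tests called 2487 genes, and 1536 after thinning. Over all tested genes the median change (log2) was −0.47, 0.09 with RLE size factors, −1.77 with library size alone and −3.58 with voom; the cause of other changes was not tested.

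Directions changed for genes that did not pass. With RLE size factors S100a10 was at 0.27 and Anxa6 at 1.26; with DESeq2 at 0.21 and 1.16. With library size alone Anxa1 was at −0.29 and Anxa11 at −0.39. With voom Anxa1 was at −4.51, Anxa5 −3.03, Anxa11 −4.38, Capn1 −2.58 and Cacybp −2.46, beside a median gene at −3.58. With single libraries left out, log2 fold changes ran from −1.93 to 0.36 for S100a6, −2.59 to 0.28 for S100a10, −1.84 to 1.18 for Anxa1, −2.25 to 5.08 for Anxa5, −1.16 to 0.11 for Anxa6, −11.60 to 1.45 for Anxa11 and −7.32 to 7.18 for Capn1. No paired analysis was possible because the groups share no replicate number in the labels. At the spread and depth of the KO libraries, missing the threshold does not show a gene to be equal in KO and WT.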

Other observations

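Col1a2, a fibroblast collagen gene, had 2615 counts in KO library 1 and 0 in every other library, while the other fibroblast markers, Col1a1, Col3a1, Pdgfra and Dcn, had at most 2 counts in any library. KO library 4, which held nearly all KO counts of Anxa5, had 1022 counts of Kit and 510 of Id2, both found in WT ILC2 libraries too.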
